A study of Mus musculus with 27 samples.

Results

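Transcripts of 8 genes of lipid handling in macrophages and heart muscle were followed across infarcted and remote myocardium: Apoe, Apoc1, Apoc4, Trem2, Gpnmb, Lpl, Abca1 and Abcg1. They were taken by gene symbol from a count table of 27304 genes, and all 8 were found. Bulk RNA sequencing covered the hearts of 14 male C57BL/6J mice of genotype ApoE-/-, sampled 7 days after a myocardial infarction (MI). Every mouse had eaten a western-type diet for 4 weeks. Mice with chronic kidney disease (CKD) then received 0.3% adenine in that diet for 10 days and 0.15% for 11 days, of which 4 preceded the MI. Control mice stayed on the western-type diet. The groups were control remote (n = 6), CKD remote (n = 8), control infarct (n = 6) and CKD infarct (n = 7), and 13 hearts gave both regions. All groups share the ApoE-/- genotype, the western-type diet and the MI, so no group is wild type or free of infarction. The labels used here give no age and do not name the Apoe allele.

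Macrophages that clear dying cells take up cholesterol and fat. They export cholesterol through the transporters Abca1 and Abcg1, which load it onto apolipoproteins, and sterol-sensing LXR receptors drive both transporter genes as well as Apoe, Apoc1 and Apoc4. Lipid-laden macrophages of plaques, fat and injured tissue carry the lipid receptor Trem2 and the lysosome-associated glycoprotein Gpnmb. Lipoprotein lipase, encoded by Lpl, frees fatty acids from triglyceride-rich lipoproteins and is made in abundance by cardiomyocytes, and also by adipocytes and macrophages.

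Library totals ran from 14255456 to 42566498 counts. Levels are given as CPM, counts scaled to library size with TMM factors over all libraries. Summed CPM of 12 cardiomyocyte markers ran from 52681 to 116141 in control remote, 95002 to 121972 in CKD remote, 4728 to 32410 in control infarct and 31338 to 117775 in CKD infarct libraries. Summed CPM of 12 macrophage markers ran from 376 to 1382, 343 to 734, 1380 to 3385 and 466 to 2844 in the same order, with no marker of either list at 0 in any library. Adipocyte markers summed to at most 37.4 CPM and hepatocyte markers to at most 4.64 CPM. A set of 3 libraries, chosen after earlier values were seen, stood apart. In CKD mouse 9179 the infarct library summed to 117775 CPM of cardiomyocyte and 466 CPM of macrophage markers, both inside the remote range. In CKD mouse 9172 the cardiomyocyte sum of the infarct was 95140 CPM. The remote library of control mouse 9180 had the highest macrophage sum of its region, 1382 CPM, and 13906 CPM of 8 fibroblast markers. The median of these markers was 2170 CPM in control remote libraries, and CKD remote libraries held at most 1969 CPM. In bulk tissue, fewer cells of a type and less RNA per cell cannot be told apart. For mouse 9179 the title of the remote library gives CKD and the treatment field gives control, and the library was kept with the CKD group.

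Promoter sequences of 3 members are shown, the members whose window held a match of a motif searched for. All 3 genes were higher in infarct than in remote tissue, and they represent cholesterol export (Abca1) and the lipid-laden macrophage (Gpnmb, Trem2). RefSeq windows (GRCm38.p6, from 250 bases before to 50 after the gene start) matched 5 of the 8 members. They are written 5′ to 3′ on the strand of the gene, with motif matches in capitals. Abca1 lies at chr4:53159846-53160145 on the minus strand, Gpnmb at chr6:49036268-49036567 on the plus strand and Trem2 at chr17:48346151-48346450 on the plus strand.
Abca1: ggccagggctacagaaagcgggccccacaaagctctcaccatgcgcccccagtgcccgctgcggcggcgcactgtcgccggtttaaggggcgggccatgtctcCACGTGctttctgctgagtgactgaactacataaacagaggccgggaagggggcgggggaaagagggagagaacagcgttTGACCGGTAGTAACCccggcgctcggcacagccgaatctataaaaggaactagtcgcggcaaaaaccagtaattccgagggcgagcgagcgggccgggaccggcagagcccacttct
Gpnmb: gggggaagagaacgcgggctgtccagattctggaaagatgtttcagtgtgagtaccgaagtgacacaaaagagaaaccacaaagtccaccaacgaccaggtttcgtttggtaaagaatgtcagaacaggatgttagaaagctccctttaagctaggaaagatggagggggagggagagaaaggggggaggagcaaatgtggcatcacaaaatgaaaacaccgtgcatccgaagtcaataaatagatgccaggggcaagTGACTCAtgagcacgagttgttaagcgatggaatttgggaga
Trem2: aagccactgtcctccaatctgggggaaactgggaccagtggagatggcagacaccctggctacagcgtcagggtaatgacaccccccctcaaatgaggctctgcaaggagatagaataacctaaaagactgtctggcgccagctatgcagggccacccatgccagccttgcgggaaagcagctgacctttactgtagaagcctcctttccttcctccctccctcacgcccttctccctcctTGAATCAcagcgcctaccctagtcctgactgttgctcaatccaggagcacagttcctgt
In Abca1 the capitals mark an E-box, CACGTG, and a match, on the strand opposite to the gene, of the half-site GGTNA followed by 5 bases of any kind and GGTNA again. This is the direct repeat with a 4-base spacer that LXR receptors are known to bind. That repeat occurred in 0.718% of 32851 promoter windows searched on both strands, and the E-box in 7.15%. In Gpnmb and Trem2 the capitals mark the AP-1 motif TGANTCA, which occurred in 7.81% of windows. The windows of Apoc4, also higher in the infarct, and of Apoe held no match of these motifs and are not shown. The motifs were chosen with the data known, do not overlap one another, and are matches of letters only.

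Infarct tissue held more Trem2, Gpnmb, Abca1, Abcg1, Apoc1 and Apoc4 transcript than remote tissue, in control and in CKD hearts alike, while Apoe did not differ detectably. Lpl was lower in the infarct of control hearts. In control hearts 6 of 8 members were called higher and 1 lower at an adjusted p under 0.05, and 63.9% of the 14770 genes tested were called in either direction (30.7% higher, 33.2% lower). In CKD hearts 6 of 8 were higher and none lower, where 45% of all genes were called (24.7% higher, 20.2% lower). The median log2 fold change of the members was 1.55 in control and 1.93 in CKD hearts, against -0.01 over all genes in both. Apoc4 passed the filter on low counts in this fit and not in the fit of remote libraries alone, so its calls are not independent of the filter.

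**Figure D1:**
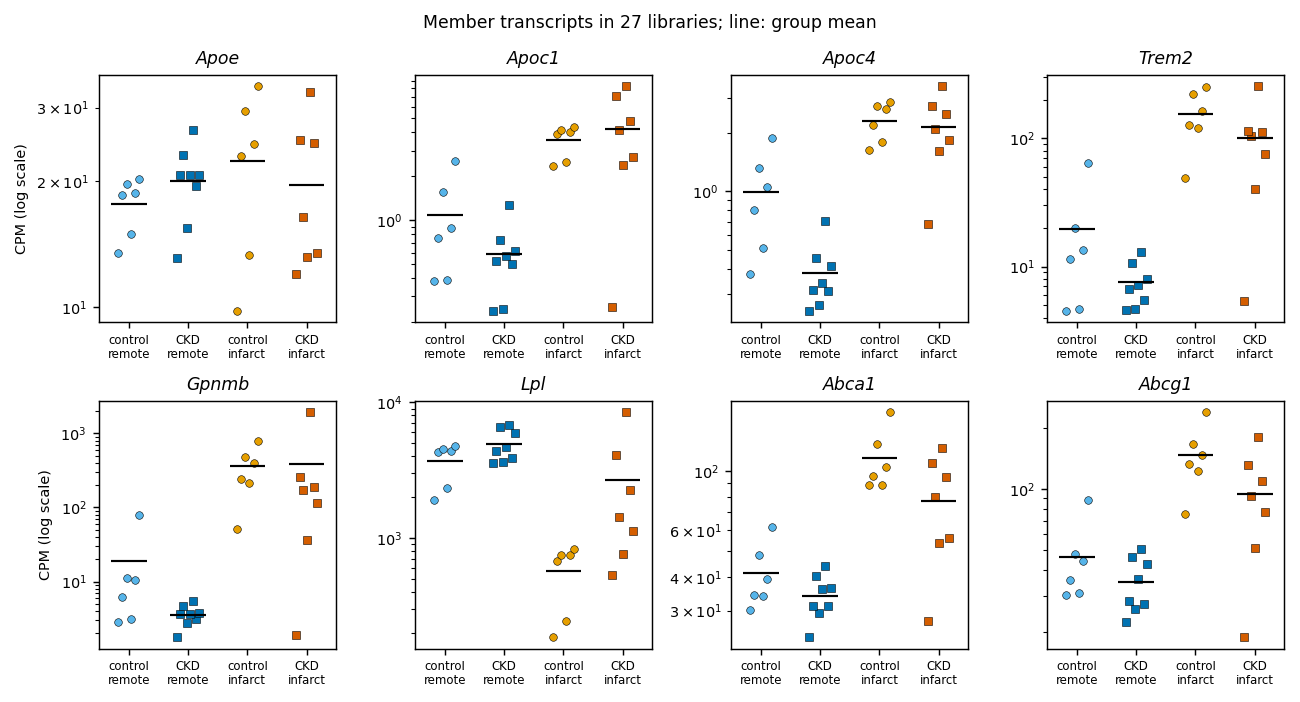
CPM (log axis) of each of the 8 genes in 27 libraries, 1 point per library in 4 groups, with a line at the group mean. Gpnmb reaches 1938 CPM in 1 CKD infarct library and lies at 1.87 CPM in another, while Apoe lies between 9.78 and 33.8 CPM throughout.

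Trem2, a surface receptor for lipids and lipoproteins on macrophages, gave 4.50 to 63.8 CPM with a median of 12.5 in control remote libraries and 4.56 to 12.9 CPM with a median of 6.95 in CKD remote libraries. In infarct tissue it gave 49.0 to 253 CPM with a median of 145 in control hearts. In CKD infarct libraries it gave 5.37 to 257 CPM with a median of 103. Regions overlapped in control hearts through the remote library of mouse 9180 (63.8 CPM), and in CKD hearts through the infarct library of mouse 9179 (5.37 CPM). The log2 fold change of infarct over remote was 2.99 ± 0.63 (SE; edgeR adjusted p = 0.000248) in control hearts. In CKD hearts it was 3.73 ± 0.58 (edgeR adjusted p = 8.28e-05). Within hearts, Trem2 was higher in the infarct in 6 of 6 control and 7 of 7 CKD pairs. Without the 3 libraries that stood apart, the differences were 3.82 and 4.12.

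Gpnmb, a glycoprotein of lysosome-rich phagocytes, had the widest range of the members. Remote libraries held 2.85 to 78.5 CPM with a median of 8.31 in control and 1.77 to 5.39 CPM with a median of 3.68 in CKD mice. Control infarct libraries held 51.6 to 795 CPM with a median of 321. CKD infarct libraries held 1.87 to 1938 CPM with a median of 174. Mouse 9175 carried the highest value and mouse 9179 the lowest, and the next highest CKD infarct library stood at 258 CPM. The region difference was 4.29 ± 1.03 in control hearts (SE; edgeR adjusted p = 0.000829) and 6.73 ± 1.01 in CKD hearts (edgeR adjusted p = 8.10e-05). In the infarct, Gpnmb was the higher in 6 of 6 control and 6 of 7 CKD pairs. Leaving out the infarct library of 9175 gave 5.14 in CKD hearts. Leaving out the remote library of 9180 gave 5.73 in control hearts, which is more than 1.5 times the fold with it. With mouse as a replicate block the differences were 5.02 in control and 5.28 in CKD hearts, and with voom the CKD value was 4.67, all called.

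Relative to Trem2, Gpnmb also had higher medians in the infarct. The count of Gpnmb per count of Trem2 had a median of 0.654 in control remote and 0.445 in CKD remote libraries, and of 2.10 in control infarct and 1.84 in CKD infarct libraries. The ratio ran from 0.457 to 1.23 in control remote and from 1.05 to 3.14 in control infarct libraries, so these groups overlapped. It ran from 0.266 to 1.16 in CKD remote and from 0.349 (mouse 9179) to 7.55 (mouse 9175) in CKD infarct libraries. The CKD infarct libraries of mice 9172 (0.902) and 9178 (1.03) also lay within the CKD remote range. These 2 genes differ in length, so the ratio compares groups and not the genes.

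Relative to macrophage markers, both genes also had higher medians in the infarct. Per 1000 summed CPM of the 12 macrophage markers, Trem2 had a median of 21.6 CPM in control remote and 64.0 CPM in control infarct libraries, and of 13.7 and 50.8 CPM in CKD mice. Gpnmb had medians of 13.2 and 135 CPM in control mice and 5.98 and 96.8 CPM in CKD mice. By contrast Abca1 had medians of 66.2 and 44.9 CPM in control and 57.1 and 44.3 CPM in CKD mice, lower in the infarct on this scale. Regions overlapped on this scale. Trem2 reached 46.2 CPM in control remote libraries against a lowest control infarct value of 35.5, and Gpnmb 56.8 against 37.4. The lowest CKD infarct values, 11.5 CPM of Trem2 and 4.03 CPM of Gpnmb, lay within the CKD remote ranges. These ratios are descriptions and were not tested. With the macrophage score (the mean log2 CPM of the markers) as a covariate, the region difference of Trem2 was -0.076 in control and 0.11 in CKD hearts (edgeR adjusted p = 0.909 and 0.931). With it no gene of the table was called between regions in either diet group, nor with the cardiomyocyte score as covariate in control hearts. In control hearts the macrophage score was 4.80 ± 0.60 in remote and 6.48 ± 0.26 in infarct libraries (SD, n = 6 each), so region and score cannot be told apart in that fit.

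**Figure D2:**
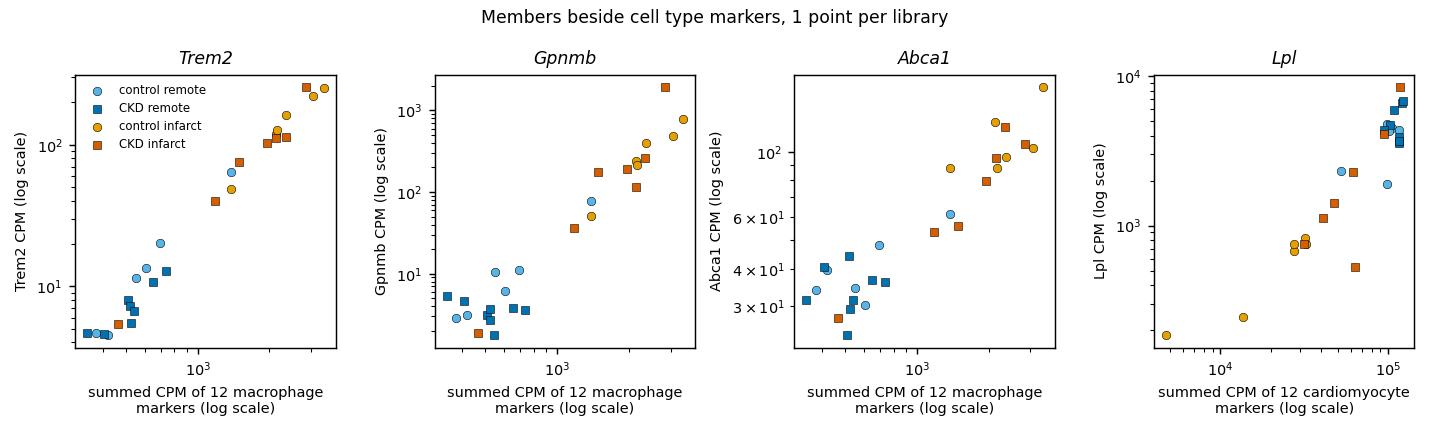
CPM of Trem2, Gpnmb and Abca1 against the summed CPM of 12 macrophage markers, and of Lpl against that of 12 cardiomyocyte markers, 1 point per library, all axes logarithmic. Trem2 and Gpnmb are high where macrophage markers are high, and the infarct library at a macrophage sum of 466 CPM lies among the remote libraries.

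Abca1, which exports cholesterol to lipid-poor apolipoproteins, gave 30.2 to 61.7 CPM with a median of 37 in control remote and 88.3 to 166 CPM with a median of 99.7 in control infarct libraries. No control infarct library overlapped a control remote one, as was so for 14.6% of all genes in the higher direction. CKD mice gave 23.8 to 44.1 CPM in remote tissue (median 33.7) and 27.4 to 122 CPM in the infarct (median 79.8), overlapping through the infarct of mouse 9179. The region difference was 1.43 ± 0.25 in control hearts (SE; edgeR adjusted p = 4.82e-05) and 1.16 ± 0.22 in CKD hearts (edgeR adjusted p = 0.000355). Infarct levels were above remote levels in 6 of 6 control and 6 of 7 CKD pairs.

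Abcg1, which passes cholesterol to mature high-density lipoprotein, ranged from 22.2 to 88.4 CPM over remote and from 18.7 to 239 CPM over infarct libraries. Its region difference was 1.67 ± 0.36 in control hearts (SE; edgeR adjusted p = 0.000324) and 1.42 ± 0.32 in CKD hearts (edgeR adjusted p = 0.00137). The pairs showed it in 6 of 6 control and 6 of 7 CKD hearts.

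Apoe is the gene that the ApoE-/- genotype disrupts, and no wild-type library is at hand for scale. Counts nonetheless fell on it in all 27 libraries, 12047 in total. The allele is not named, and gene totals cannot show which part of the gene those reads came from. Levels were 13.5 to 20.2 CPM with a median of 18.6 in control remote and 13.1 to 26.5 CPM with a median of 20.7 in CKD remote libraries. Infarct libraries gave 9.78 to 33.8 CPM with a median of 23.7 in control and 11.98 to 32.7 CPM with a median of 16.4 in CKD mice. The 4 groups overlapped throughout, and Apoe was the only member not called in any of the 5 comparisons. Per kb of exon its mean level ranked 3 of 8 members in control remote, 2 of 8 in CKD remote and 5 of 8 in both infarct groups. The region difference was 0.34 ± 0.26 in control (SE; edgeR adjusted p = 0.255) and -0.040 ± 0.23 in CKD hearts (edgeR adjusted p = 0.900).

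Apoc1 and Apoc4 encode small apolipoproteins of triglyceride-rich particles and neighbour Apoe on chromosome 7, in the RefSeq order Apoc2, Gm44805, Apoc4, Apoc1, Apoe and Tomm40. Over all libraries Apoc1 had 1492 counts and Apoc4 914, against 9 for Apoc2 and 1 for Gm44805. Gm44805 is a read-through model that overlaps Apoc4, so the split of counts between them is uncertain. Both members were near the lower limit of detection in remote tissue, with at least 4 counts in every library.

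Apoc1 gave 0.239 to 2.56 CPM over remote and 0.256 to 8.33 CPM over infarct libraries. Its region difference was 1.67 ± 0.49 in control (SE; edgeR adjusted p = 0.00467) and 2.81 ± 0.47 in CKD hearts (edgeR adjusted p = 0.000111). Infarct exceeded remote in 5 of 6 control and 7 of 7 CKD pairs. Apoc4 gave 0.380 to 1.88 CPM with a median of 0.928 in control remote and 0.245 to 0.706 CPM with a median of 0.327 in CKD remote libraries. In infarct tissue it gave 1.63 to 2.85 CPM with a median of 2.41 in control and 0.682 to 3.47 CPM with a median of 2.09 in CKD mice. Apoc4 thus had its lowest levels in CKD remote tissue, and the infarct library of 9179 was the one CKD infarct library within the CKD remote range. Its region difference was 1.196 ± 0.33 in control (SE; edgeR adjusted p = 0.00254) and 2.44 ± 0.32 in CKD hearts (edgeR adjusted p = 7.16e-05). Apoc4 failed the filter on low counts in remote libraries alone and passed it through the infarct libraries, where it was higher. The test of its region difference is therefore not independent of the filter. Infarct exceeded remote Apoc4 in 5 of 6 control and 7 of 7 CKD pairs.

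Lpl was the most abundant member per kb of exon in each of the 4 groups, at a mean of 898 CPM per kb in control remote libraries, and Apoc4 the least, at 1.84 CPM per kb. Control remote libraries gave 1893 to 4794 CPM of Lpl with a median of 4313, and CKD remote libraries 3596 to 6855 CPM with a median of 4517. Control infarct libraries gave 185 to 831 CPM with a median of 716, below every control remote library, as was so for 18.9% of all genes in the lower direction. CKD infarct libraries spread from 532 to 8474 CPM with a median of 1414. The highest were those of mice 9179 (8474 CPM) and 9172 (4113 CPM), which also had the highest cardiomyocyte marker sums of their group. In control hearts the region difference was -2.68 ± 0.54 (SE; edgeR adjusted p = 0.000151), and all 6 infarcts were lower than the remote tissue of the same heart.

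In CKD hearts Lpl had a region difference of -0.89 ± 0.46 (SE; edgeR adjusted p = 0.112), and 1 of 7 infarcts was higher than its remote tissue. With mouse as a replicate block the difference was -1.496 and passed the test (edgeR adjusted p = 0.0102). It was -2.01 without the infarct libraries of 9172 and 9179 (edgeR adjusted p = 0.000117). Leaving out the infarct library of 9179 alone gave -1.54 (edgeR adjusted p = 0.00231). Per 1000 summed CPM of cardiomyocyte markers, Lpl had medians of 42.6 CPM in control remote, 45.6 in CKD remote, 25.4 in control infarct and 29.8 in CKD infarct libraries.

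**Figure D3:**
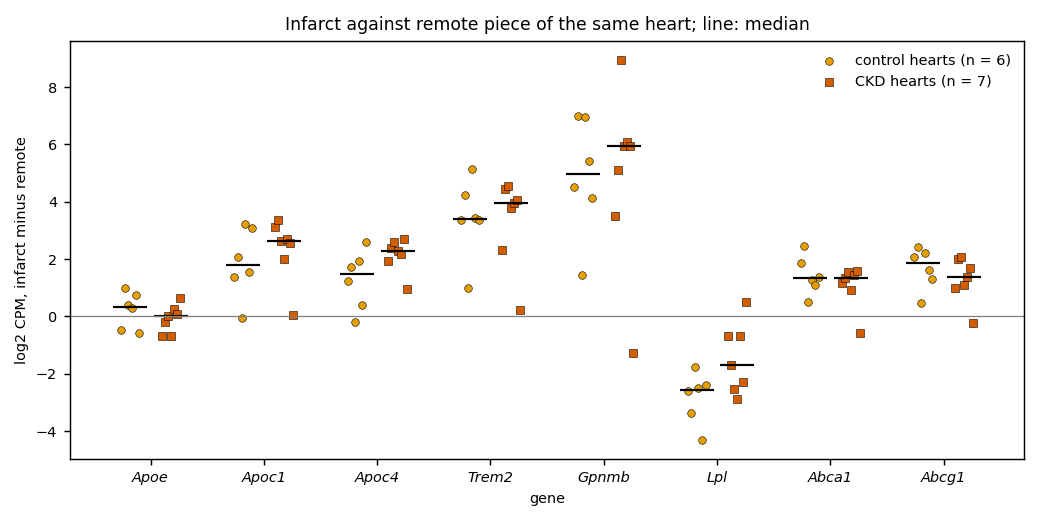
Difference in log2 CPM between the infarct and the remote library of the same heart for each gene, 1 point per heart (6 control, 7 CKD), with a line at the median. Lpl lies below 0 in all 6 control hearts, and Gpnmb has medians of 4.96 in control and 5.95 in CKD hearts.

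Other genes of lipid-laden macrophages were mostly higher in the infarct as well. Of 18 listed companions, 14 were higher and 3 lower in the control infarct, and 15 were higher and 2 lower in the CKD infarct. Their median log2 fold changes were 1.52 and 1.35. Msr1, a scavenger receptor, was higher by 2.25 ± 0.38 in control and 1.95 ± 0.34 in CKD hearts (SE; edgeR adjusted p = 3.46e-05 and 0.000152). Lgals3, which encodes galectin-3, was higher by 3.07 ± 0.72 in control and 4.26 ± 0.67 in CKD hearts (SE; edgeR adjusted p = 0.000672 and 8.65e-05). In the same order Itgax, an integrin of phagocytes, was higher by 2.69 ± 0.67 and 4.17 ± 0.65 (edgeR adjusted p = 0.00123 and 8.28e-05). Cd63, a lysosomal membrane protein, was higher by 1.37 ± 0.23 and 1.37 ± 0.21 (edgeR adjusted p = 3.55e-05 and 8.10e-05). The fatty acid transporter Cd36, which heart muscle and endothelium also express, was lower in the control infarct, at -1.83 ± 0.29 (SE; edgeR adjusted p = 2.01e-05). It was also lower in the CKD infarct, at -0.76 ± 0.26 (SE; edgeR adjusted p = 0.0196). Syngr1 was lower in the control infarct, at -0.68 ± 0.11 (SE; edgeR adjusted p = 2.21e-05), and not called in the CKD infarct, at -0.07 ± 0.10 (edgeR adjusted p = 0.557).

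Genes of LXR and sterol efflux other than the members did not move one way. Of 16, 5 were higher and 4 lower in the control infarct, and 4 were higher and 4 lower in the CKD infarct, with medians of -0.05 in both. Npc2, which moves cholesterol out of lysosomes, was higher by 1.72 ± 0.25 in control (SE; edgeR adjusted p = 1.27e-05) and 1.49 ± 0.22 in CKD hearts (edgeR adjusted p = 7.48e-05). Soat1, which esterifies cholesterol for storage, was higher by 2.37 ± 0.45 and 2.43 ± 0.40 (SE; edgeR adjusted p = 8.55e-05 and 0.000110). Abca7, a relative of Abca1, was lower at -0.53 ± 0.12 in control and -0.43 ± 0.11 in CKD hearts (SE; edgeR adjusted p = 0.000599 and 0.00344). Of 15 genes of sterol synthesis and uptake, 4 were higher and 1 lower in control and 2 higher and 1 lower in CKD hearts. Fdft1, squalene synthase, was lower at -1.66 ± 0.31 and -0.85 ± 0.27 (SE; edgeR adjusted p = 6.98e-05 and 0.0142).

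Among 14 regulators of Lpl and lipoprotein receptors, 10 were tested. In control hearts 4 were higher and 4 lower in the infarct, and in CKD hearts 4 were higher and 3 lower. Gpihbp1, which carries the lipase to the capillary wall, was lower in both comparisons, at -1.73 ± 0.23 and -0.95 ± 0.21 (SE; edgeR adjusted p = 9.95e-06 and 0.00105). The receptor Vldlr was lower in control hearts, at -1.74 ± 0.30 (SE; edgeR adjusted p = 3.73e-05). Lrp1, a receptor for Apoe-bearing remnants, was higher by 1.504 ± 0.27 and 1.11 ± 0.23 (SE; edgeR adjusted p = 4.81e-05 and 0.000754). Of 9 other apolipoproteins 4 were tested. Clu, also called apolipoprotein J, was higher by 1.56 ± 0.48 and 2.20 ± 0.44 (SE; edgeR adjusted p = 0.00705 and 0.000455), and the mitochondrial Apoo was lower at -1.94 ± 0.28 and -0.73 ± 0.24 (SE; edgeR adjusted p = 1.2e-05 and 0.0173).

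In remote myocardium the comparison of CKD with control mice asked whether kidney disease altered these transcripts away from the scar, and no member passed the test. Of 13902 genes tested, 0.0216% were called by edgeR (3 genes). At an unadjusted p under 0.05, 2 of the 7 members tested were lower, Trem2 and Gpnmb, where 11.7% of all genes reached that level. Gpnmb had a log2 fold change of -2.41 ± 0.63 (SE; edgeR adjusted p = 0.265; DESeq2 adjusted p = 0.0480) and Trem2 of -1.42 ± 0.50 (SE; edgeR adjusted p = 0.321). Without the remote library of control mouse 9180 these values were -0.90 and -0.53. Apoc1 stood at -0.90 ± 0.44 (SE; edgeR adjusted p = 0.439), and at -0.41 without that library. Apoc4, tested with no filter on low counts, stood at -1.37 ± 0.36 (SE; edgeR adjusted p = 0.214), and at -1.05 without that library. Library 9180 also held the highest Abca1 and Abcg1 of its group. Summed macrophage markers had medians of 577 CPM in control and 523 CPM in CKD remote libraries and fibroblast markers 2170 and 1288 CPM, and their part in these values was not tested. For Abca1 the value was -0.28 ± 0.17, for Abcg1 -0.42 ± 0.25, for Apoe 0.18 ± 0.15 and for Lpl 0.42 ± 0.23 (SE; edgeR adjusted p from 0.489 to 0.655). None of the genes in the 5 pathway lists was called. Spp1, which encodes the secreted phosphoprotein osteopontin, had the smallest p among the companions, at -3.18 ± 0.82 (SE; edgeR adjusted p = 0.254).

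**Figure D4:**
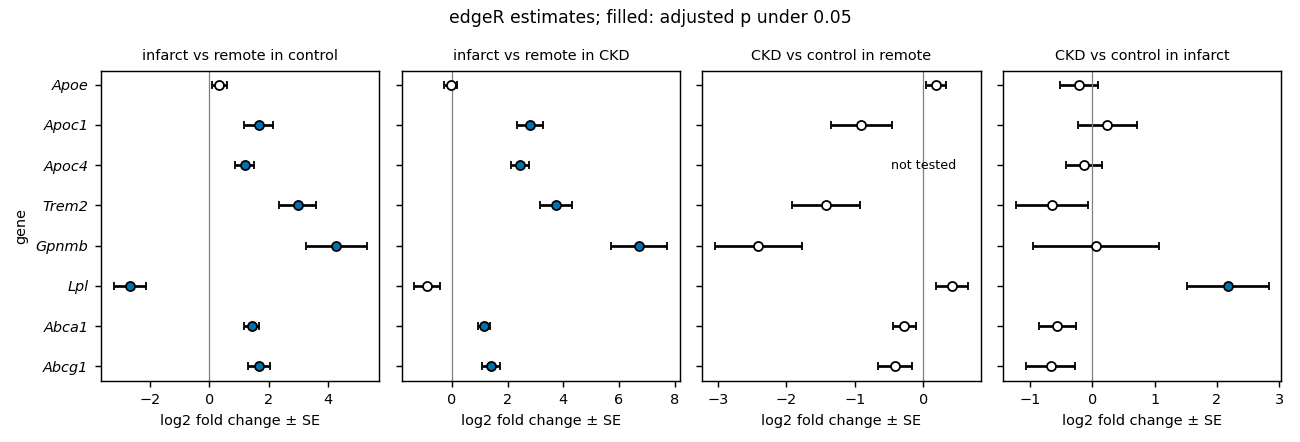
Log2 fold changes with SE of the 8 genes in 4 comparisons from edgeR, filled where the adjusted p was under 0.05. Of the comparisons of CKD with control, only Lpl in the infarct is filled, at 2.18.

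Within the infarct, Lpl was the only member that differed between CKD and control mice, with a log2 fold change of 2.18 ± 0.65 (SE; edgeR adjusted p = 0.0377). By this test 20.3% of 14358 genes were called, 13.1% higher and 7.14% lower. The values overlapped, since the CKD infarct libraries of mice 9176 (532 CPM) and 9175 (757 CPM) lay within the control range. Summed cardiomyocyte markers moved the same way, with medians of 27448 CPM in control and 61491 CPM in CKD infarct libraries, and 5 of 12 of these markers were called higher. When the cardiomyocyte score entered as covariate, the Lpl value was 0.30 (edgeR adjusted p = 0.964), and no gene was called. That score was 9.86 ± 1.29 in control infarct (SD, n = 6) and 11.6 ± 0.69 in CKD infarct libraries (SD, n = 7). Diet and score therefore cannot be fully told apart in that fit. Without the infarct libraries of 9172 and 9179 the Lpl value was 1.04 (edgeR adjusted p = 0.160). The call was also lost without any 1 of 7 libraries, with edgeR adjusted p values of 0.0842, 0.0559, 0.0602 and 0.0867 without control mice 9171, 9180, 9182 and 9183. Without CKD mice 9172, 9177 and 9179 they were 0.0774, 0.0555 and 0.0619. The Lpl value stayed between 1.99 and 2.27 in 6 of these 7 fits, and was 1.53 without the infarct library of 9179.

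The macrophage members did not pass the test in the infarct. Trem2 had a value of -0.65 ± 0.58 (SE; edgeR adjusted p = 0.415), Abca1 of -0.56 ± 0.29 (edgeR adjusted p = 0.162) and Abcg1 of -0.67 ± 0.40 (edgeR adjusted p = 0.220). Gpnmb stood at 0.066 ± 1.01 (SE; edgeR adjusted p = 0.967). Without the infarct library of CKD mouse 9175 its value was -1.52 (edgeR adjusted p = 0.152). The apolipoproteins Apoe, Apoc1 and Apoc4 stood at -0.22 ± 0.31, 0.24 ± 0.47 and -0.13 ± 0.29 (SE; edgeR adjusted p = 0.604, 0.714 and 0.748). Of 3 pathway lists, 1 of 18 companions, 2 of 9 regulators of Lpl tested and 1 of 4 other apolipoproteins were called higher. Syngr1 was higher by 0.58 ± 0.12 (SE; edgeR adjusted p = 0.0345), the lipase chaperone Lmf1 by 0.49 ± 0.14 (edgeR adjusted p = 0.0363), Vldlr by 0.997 ± 0.33 (edgeR adjusted p = 0.0481) and Apoo by 1.32 ± 0.33 (edgeR adjusted p = 0.0345). Without the infarct libraries of 9172 and 9179 edgeR called 0 genes in this comparison, and 4064 reached an unadjusted p under 0.05.

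A direct test asked if CKD acted unequally on the 2 regions, and 0% of 14770 genes were called by edgeR (18.9% had an unadjusted p under 0.05, and DESeq2 called 600 genes). Among the members the difference of effects was 1.80 ± 0.68 for Lpl (SE; edgeR adjusted p = 0.174), 1.24 ± 0.45 for Apoc4 (edgeR adjusted p = 0.169) and 2.44 ± 1.24 for Gpnmb (edgeR adjusted p = 0.286). The other 5 had adjusted p values of 0.360 or more. The Gpnmb value was 0.996 without the remote library of control mouse 9180 and 0.86 without the infarct library of CKD mouse 9175. It was 0.26 with mouse as a replicate block, 0.53 with the macrophage covariate, 3.19 with the cardiomyocyte covariate and 0.029 with voom. The Lpl value was 1.10 without the infarct library of CKD mouse 9179, 0.64 without those of 9172 and 9179, and 0.15 with the cardiomyocyte covariate.

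After the 4 group means were removed, the log2 CPM of each member was compared with that of 13310 genes over the 27 libraries. These correlations are descriptions, since libraries share tissue makeup. Trem2 was most like Cd300c2, Cybb and Lgals3 (r = 0.98 for each). Gpnmb was most like Ctss (0.97), Tpd52 (0.96) and Mpeg1 (0.96), Abcg1 like Pik3ap1 (0.96), Tmem229b (0.95) and Sdc3 (0.95), and Abca1 like Dock10, Ptprj (0.88 for both) and Arhgap30 (0.87). Lpl was most like Etfb (0.97), ND3 and ATP6 (0.96 for both), genes of mitochondrial electron transfer and respiration. Apoc1 was most like Dctd (0.90), Clec4a3 and Ssc5d (0.87 for both), Apoc4 like Plac8 (0.86), Pde1a (0.84) and H2-K1 (0.83), and Apoe like Washc1, Cdk5 (0.78 for both) and Nr1h2 (0.77). Among the members, Trem2 and Gpnmb had r = 0.92 (0.76 without the 3 libraries that stood apart) and Trem2 and Abcg1 r = 0.92 (0.77). Other pairs weakened more without them. Apoc1 and Trem2 had r = 0.80 (0.43), Apoc1 and Gpnmb 0.76 (0.32), and Trem2 and Abca1 0.76 (0.39). Apoe did not follow its neighbour Apoc1 (r = -0.49, and -0.42 without the 3 libraries). The r values of the most alike genes were computed with all 27 libraries only.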

How the data were processed

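Whole-number counts per gene were used as the authors deposited them, the unit taken from the values. The submitters' processing notes name kallisto 0.48.0 and build GRCm39. How transcript estimates became gene counts, and whether strand was used, is not given in the sources used here. Groups came from titles and labels, which name no sequencing batch. The members, gene lists, tests and motifs were chosen with earlier results of these data known.

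After filterByExpr and TMM scaling, genes were tested in edgeR 4.0.16 (R 4.3.3) by its quasi-likelihood F test. P-values were adjusted over all genes tested (Benjamini-Hochberg, threshold 0.05). Diet groups were compared within a region from that region's libraries. Regions, and the difference of effects, were compared in 1 model of the 27 libraries and 4 group means. SE is the fold change divided by the root of F. Log2 CPM used a prior count of 2. Levels per kb used exon lengths of GENCODE annotation of another build than the authors'.

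Alternatives were DESeq2 1.42.0 and its size factors, limma 3.58.1 voom, other filters, covariates, a model of all libraries, leaving out libraries, and mouse as a block. Both regions of a mouse are paired because they come from 1 heart. Their residuals correlated at -0.10 to 0.40 (median 0.17, 13 pairs). Infarct and remote libraries of different mice correlated at -0.77 to 0.63 (median -0.020, 169 pairs), a range that holds the same-heart values. No pair of libraries in a group was a duplicate, since chi-square divided by its degrees of freedom was 9.03 or more in all 79 pairs. The edgeR script was tested on simulated data. Named genes are the 8 members, per list and comparison up to 3 called genes with the smallest p or the 2 smallest where none was called, and per member the 3 most alike genes averaging 1 CPM or more. The text prints a selection. A result for 1 gene of the sterol synthesis list is not reported here.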

Additional observations from a re-analysis of the deposited data

Results flagged for a closer look

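Of 32 combinations of a gene and a group, 6 had a highest library far from the others by Dixon's criterion, applied to CPM and not to log2 CPM. The criterion assumes values spread as in a normal distribution, and the combinations share libraries. No chance rate can therefore be set beside this count. The remote library of control mouse 9180 stood out for Trem2 (63.8 CPM, the next library at 20.04), Gpnmb (78.5 CPM, next 11.2) and Abcg1 (88.4 CPM, next 48.2), and had a macrophage marker sum of 1382 CPM. Among CKD infarct libraries, that of mouse 9175 stood out for Trem2 (257 CPM, next 113) and Gpnmb (1938 CPM, next 258), and had a macrophage marker sum of 2844 CPM, the highest of its group. Apoc4 was at 0.706 CPM in the remote library of CKD mouse 9177, the next at 0.458 CPM. The part of tissue makeup in these values was not tested.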

How the results depend on the processing

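Scaling with DESeq2 size factors changed no call of a member, and moved the median log2 fold change of all genes by at most 0.037. The numbers of genes called were 3 for CKD against control in remote tissue, 2908 in infarct tissue, 9437 and 6644 for infarct against remote tissue in control and CKD mice, and 0 for the difference of effects. With mouse as a replicate block the last 3 were 9764, 7200 and 0, and the call of Lpl in CKD hearts was the one member call that the block changed. In remote tissue the count was 1 with no filter, with all 27 libraries fitted or with the remote library of 9179 counted as control, 97 with DESeq2, 6 with voom and 0 with the cardiomyocyte covariate. It ran from 1 to 6 when 1 library was left out. In infarct tissue it was 1926 with no filter, 4557 with DESeq2, 5067 with all libraries fitted, 0 with the cardiomyocyte covariate, 0 without 9172 and 9179 and 0 without 9172, 9175 and 9179. It ran from 0 to 4651 when 1 library was left out. It was 0 without control mice 9171, 9182 or 9183 or CKD mice 9172 or 9177, and 4651 without CKD mouse 9175. For infarct against remote tissue the counts were 0 in both diets with the macrophage covariate, and 0 in control and 1945 in CKD mice with the cardiomyocyte covariate. The difference of effects gave 600 with DESeq2, 7 with the macrophage covariate, and 0 to 1 when 1 library was left out. The fits without 3 libraries, and without 9172, 9175 and 9179, were chosen after seeing the data.

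Values that changed sign, none of which passed the test, were these. With voom, CKD against control in the infarct was -0.061 for Apoc1 and -1.63 for Gpnmb, and the difference of effects for Trem2 was -0.056. With the macrophage covariate, infarct against remote in control mice was -0.40 for Apoc1, -0.076 for Trem2 and -0.23 for Abcg1. In CKD mice it was 0.17 for Apoe, 0.22 for Lpl and -0.51 for Abcg1, and CKD in the infarct was 0.061 for Apoc4. With the cardiomyocyte covariate, CKD in remote tissue was 0.076 for Abcg1. In the infarct it was 0.047 for Apoe, 0.11 for Apoc4, 0.55 for Trem2 and 0.14 for Abcg1, and the difference of effects was 0.18 for Abca1 and 0.43 for Abcg1. Without 9172 and 9179, CKD in the infarct was 0.055 for Apoc4 and the difference of effects 0.070 for Abcg1. Without 9175 as well, the infarct values were 0.055 for Apoc4 and -1.03 for Gpnmb. Leaving out 1 library gave ranges of -0.19 to 0.057 for Apoe (infarct against remote, CKD mice), and of -0.093 to 0.97 for the difference of effects of Trem2. For CKD in the infarct it gave -1.52 to 0.46 for Gpnmb, -0.0094 to 0.44 for Apoc1 and -0.28 to 0.013 for Apoc4. The causes were not tested. Depth limits Apoc1 and Apoc4 most, with counts as low as 3 and 4 in a library.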
